A study of Mus musculus with 7 samples.

Results

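The antibody signal for 5-hydroxymethylcytosine (5hmC) over 2 large olfactory receptor gene clusters was described in hippocampal DNA of wild-type and Tet2 conditional knockout mice. The clusters were taken by position on the mouse build mm9, as chr2:85500001-89500000 and chr9:37600001-40000000, and cut into the deposited bins of 500 bp. Bins whose count averaged more than 100 reads across the 7 libraries were to be left out, and neither cluster held one. The chromosome 2 cluster had 8000 bins and the chromosome 9 cluster 4800, together 12800 of the 5451548 bins in the series. The highest mean count of a member bin was 43.1 reads on chromosome 2 and 37.9 on chromosome 9, so no member lay close to the bound of 100. Each cluster was set against the 2 Mb on either side, called its flanks here, and against all other bins of its chromosome.

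There are 3 wild-type libraries (WT) and 4 of the Tet2 conditional knockout (Tet2 CKO), each from the hippocampus of C57BL/6 mice that were not stressed. Genomic DNA was enriched with an antibody to 5hmC and sequenced. Age, the promoter driving Cre and the cells that lost Tet2 are not stated in the labels. Nothing ties a library to an animal of its own, and the p-values therefore reflect how far the libraries differ, in part perhaps for technical reasons.

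5hmC is made from 5-methylcytosine by the TET dioxygenases, of which Tet2 is one. It is abundant in neurons, where it is known to be found in the bodies of active genes and at enhancers, and to be scarce over genes that are not transcribed. Olfactory receptors are G protein-coupled receptors for odorants. Their genes are short, lie in long tandem arrays with pseudogenes between them, and are transcribed in olfactory sensory neurons, each of which settles on a single allele of a single receptor gene. In other tissues, brain included, these arrays are known as late-replicating, AT-rich heterochromatin with little transcription. No RNA was measured in this series, so whether the genes were silent in these hippocampi was not tested.

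The mouse gene table of RefSeq (GRCm38.p6), used for names and order alone, gives an array of 293 receptor genes on chromosome 2, from Olfr987 to Olfr1274, of which 222 are protein-coding and 71 are pseudogenes. Here an array is a run with at most 5 other genes between neighbouring receptor genes. The chromosome 2 array holds 39 other genes, of which Fads2b, Pramel7 and Pramel6 are protein-coding. The array on chromosome 9 has 127 receptor genes from Olfr160 to Olfr986, with 95 protein-coding genes and 31 pseudogenes. It holds 17 other genes, of which Vwa5a, AW551984 and Tmem225 are protein-coding. That build differs from the mm9 bins, so no bin was assigned to a gene and the edges of the arrays were not matched to the edges of the intervals.

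Promoters of the arrays and of their neighbours were compared in CpG, the dinucleotide in which most 5-methylcytosine and 5hmC occur. The promoters printed are those of the first and last receptor gene of each array with a RefSeq entry and of the nearest protein-coding neighbour outside it with one. Each runs from 250 bases before to 50 bases after the annotated start, is written 5′ to 3′ on the gene's own strand, and has every CG in capitals. In Olfr988 the 50 bases after that start open with atg, as a coding sequence does. Whether the annotated start of a receptor gene marks the start of its transcription was not tested. CG reads the same on both strands and was counted on one. On chromosome 2 they are Olfr988 (chr2:85353875-85354174, minus strand), Olfr1274 (chr2:90400390-90400689, plus strand), and the neighbours Lrrc55 (chr2:85198701-85199000, minus strand) and Ptprj (chr2:90479125-90479424, minus strand). Lrrc55 encodes an auxiliary subunit of BK potassium channels, and Ptprj a receptor tyrosine phosphatase.
Olfr988: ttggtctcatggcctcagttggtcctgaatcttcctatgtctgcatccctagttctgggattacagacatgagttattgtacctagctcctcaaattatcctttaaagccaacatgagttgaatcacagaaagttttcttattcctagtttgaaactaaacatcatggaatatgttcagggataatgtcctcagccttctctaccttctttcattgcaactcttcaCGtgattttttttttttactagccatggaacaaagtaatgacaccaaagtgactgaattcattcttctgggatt
Olfr1274: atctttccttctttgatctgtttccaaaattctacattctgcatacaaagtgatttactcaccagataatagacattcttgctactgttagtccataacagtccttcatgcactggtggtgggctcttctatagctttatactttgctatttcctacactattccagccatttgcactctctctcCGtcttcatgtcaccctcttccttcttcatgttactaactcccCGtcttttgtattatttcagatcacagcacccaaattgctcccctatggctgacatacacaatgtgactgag
Lrrc55: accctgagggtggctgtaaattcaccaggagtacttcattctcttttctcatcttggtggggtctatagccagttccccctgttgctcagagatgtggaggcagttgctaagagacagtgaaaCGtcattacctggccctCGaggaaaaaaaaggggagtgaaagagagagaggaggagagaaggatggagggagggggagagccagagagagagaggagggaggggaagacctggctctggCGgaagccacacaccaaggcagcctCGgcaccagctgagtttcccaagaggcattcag
Ptprj: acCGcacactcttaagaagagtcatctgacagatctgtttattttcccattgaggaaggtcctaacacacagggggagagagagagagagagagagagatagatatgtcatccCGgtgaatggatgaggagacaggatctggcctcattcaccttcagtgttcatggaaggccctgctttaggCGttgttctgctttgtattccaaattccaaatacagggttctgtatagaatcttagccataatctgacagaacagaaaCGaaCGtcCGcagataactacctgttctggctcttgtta
On chromosome 9 they are Olfr160 (chr9:37712231-37712530, minus strand), Olfr986 (chr9:40186829-40187128, plus strand), and the neighbours Tbrg1 (chr9:37657263-37657562, minus strand) and Zfp202 (chr9:40192066-40192365, plus strand). Zfp202 encodes a zinc finger protein.
Olfr160: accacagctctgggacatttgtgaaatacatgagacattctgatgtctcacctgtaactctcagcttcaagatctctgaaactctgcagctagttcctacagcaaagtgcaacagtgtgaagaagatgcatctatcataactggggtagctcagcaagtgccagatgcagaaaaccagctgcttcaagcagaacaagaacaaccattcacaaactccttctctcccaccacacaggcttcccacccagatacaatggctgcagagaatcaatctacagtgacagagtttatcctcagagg
Olfr986: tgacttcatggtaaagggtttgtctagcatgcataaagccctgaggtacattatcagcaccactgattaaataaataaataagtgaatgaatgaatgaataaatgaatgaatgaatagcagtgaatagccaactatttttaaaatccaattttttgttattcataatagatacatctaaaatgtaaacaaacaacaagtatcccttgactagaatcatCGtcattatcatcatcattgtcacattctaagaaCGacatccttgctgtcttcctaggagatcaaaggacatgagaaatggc
Tbrg1: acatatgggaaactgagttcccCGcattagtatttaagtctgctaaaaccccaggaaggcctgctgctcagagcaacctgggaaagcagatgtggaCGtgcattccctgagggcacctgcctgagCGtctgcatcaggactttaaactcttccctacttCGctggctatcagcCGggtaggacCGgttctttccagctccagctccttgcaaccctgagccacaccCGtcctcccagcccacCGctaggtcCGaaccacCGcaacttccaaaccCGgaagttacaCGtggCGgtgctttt
Zfp202: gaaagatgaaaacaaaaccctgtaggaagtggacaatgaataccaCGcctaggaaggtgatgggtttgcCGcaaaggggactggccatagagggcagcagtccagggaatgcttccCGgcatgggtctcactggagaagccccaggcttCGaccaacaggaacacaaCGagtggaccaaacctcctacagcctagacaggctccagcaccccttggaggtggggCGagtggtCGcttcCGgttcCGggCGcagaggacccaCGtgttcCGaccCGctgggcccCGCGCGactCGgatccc

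The receptor promoters printed hold 1 CG in Olfr988, 2 in Olfr1274, 0 in Olfr160 and 2 in Olfr986. Their neighbours hold 4 in Lrrc55, 6 in Ptprj, 13 in Tbrg1 and 17 in Zfp202. Over the 186 receptor genes of the chromosome 2 array with a promoter entry the median was 1 CG, and 36.0% had none. Over the 79 of the chromosome 9 array the median was also 1, and 30.4% had none. The 20 protein-coding neighbours with an entry on each side had a median of 15 on chromosome 2 and 14.5 on chromosome 9. Of all 27025 promoters 5.78% had no CG and 43.9% had at least 10, a number that 0 promoters of either array reached. Median GC content was 32.0% and 35.3% in the promoters of the arrays, 57.3% and 57.5% in those of the neighbours and 52.7% over all promoters. Where an annotated start is a coding start, the bases before it need not be a promoter. Receptor genes and neighbours may therefore be compared at unlike positions. The CpG content of the mm9 bins was not analysed here, and its part in the read density of the clusters was not tested.

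Libraries held 26134505 to 49414761 reads. A set of 375 high-count bins outside the clusters took 29.8% of the reads of WT replicate 1, 69.8% and 74.1% of Tet2 CKO replicates 2 and 3, and 49.6% to 54.3% of the other 4 libraries. WT replicate 1 kept 29470058 reads outside those bins and the others 11846180 to 14929892. Between 71.7% and 83.6% of the bins with reads had an even count, so intervals that take each read as independent may be too narrow. The libraries Tet2 CKO replicates 2 and 3, also stood apart from the other 5 in many of the results on the clusters, so the tested results are given with and without them. All 7 libraries are labelled as 5hmC profiles, and no value here checks that label, so whether these 2 libraries were enriched for 5hmC like the others was not tested. The part of the high-count share in these results was not tested.

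Both clusters held few reads for their size in 5 of the 7 libraries and many in the other 2. In the 3 WT libraries and in Tet2 CKO replicates 1 and 4, read density in the clusters was 1.39-fold to 3.19-fold below the rest of the chromosome. In Tet2 CKO replicates 2 and 3 it was above the rest of the chromosome, at ratios of 1.46 to 1.54. Density here is the number of reads per covered bin, a bin with at least 1 read in any library.

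On chromosome 2 the cluster held 2.05, 1.69 and 2.20 reads per covered bin in WT replicates 1 to 3, and 1.72, 3.52, 3.70 and 1.96 in Tet2 CKO replicates 1 to 4. Its flanks held 6.03, 2.74 and 3.29 in WT and 2.89, 2.80, 3.13 and 3.28 in Tet2 CKO. The ratio of cluster to flanks was therefore 0.340, 0.618 and 0.667 in WT and 0.595, 1.25, 1.18 and 0.598 in Tet2 CKO. WT replicate 1 was lowest, Tet2 CKO replicates 2 and 3 were highest, and the other Tet2 CKO libraries lay among the WT values, so the genotypes overlapped. Against the rest of chromosome 2 the ratios were 0.313, 0.629 and 0.692 in WT and 0.622, 1.53, 1.47 and 0.639 in Tet2 CKO, in nearly the same order.

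On chromosome 9 the cluster held 2.30, 1.80 and 2.36 reads per covered bin in WT and 1.75, 3.42, 3.47 and 2.10 in Tet2 CKO. Its ratio to the flanks was 0.346, 0.631 and 0.713 in WT and 0.596, 1.47, 1.44 and 0.655 in Tet2 CKO. Against the rest of chromosome 9 it was 0.331, 0.646 and 0.719 in WT and 0.606, 1.54, 1.46 and 0.659 in Tet2 CKO. The libraries fell as they did on chromosome 2, with WT replicate 1 lowest and Tet2 CKO replicates 2 and 3 highest. The clusters, which lie on separate chromosomes, differed little within a library. The log2 ratio to the rest of the chromosome was lower on chromosome 2 than on chromosome 9 by a mean of 0.025 (SD 0.043, n = 7), which did not exceed the spread between libraries (two-sided exact permutation of signs, p = 0.203).

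As a share of reads outside the high-count bins, the chromosome 2 cluster took 0.0485%, 0.0937% and 0.103% in WT and 0.0926%, 0.207%, 0.201% and 0.0948% in Tet2 CKO, where its bins are 0.144% of covered bins. The chromosome 9 cluster took 0.0335%, 0.0614% and 0.0681% in WT and 0.0582%, 0.124%, 0.116% and 0.0625% in Tet2 CKO, with 0.0885% of covered bins. Tet2 CKO replicates 2 and 3 were above the share of covered bins in both clusters and the other 5 libraries below it. These shares rest on 11808 to 25795 reads per library on chromosome 2 and 7539 to 14913 on chromosome 9.

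Over the 7 libraries together the lower density in the clusters did not exceed the spread between libraries. The mean log2 ratio of cluster to flanks was -0.54 on chromosome 2 (p = 0.0625) and -0.42 on chromosome 9 (p = 0.156), by exact permutation of the signs, two-sided. Against the rest of the chromosome it was -0.43 (p = 0.156) and -0.41 (p = 0.203) in the same exact test. The Benjamini-Hochberg adjusted p over these 4 comparisons was 0.203 for each, where the smallest unadjusted p that 7 libraries allow is 0.0156. Each ratio was below 1 in 5 of 7 libraries. Without WT replicate 1, the lowest library, the means were -0.37 and -0.24 against flanks and -0.23 and -0.21 against the rest of the chromosome. Without Tet2 CKO replicates 2 and 3 the means were -0.87 and -0.81 against flanks and -0.84 and -0.80 against the rest of the chromosome, below 0 in 5 of 5 libraries, at the smallest p that 5 libraries allow (exact permutation, p = 0.0625).

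**Figure D1:**
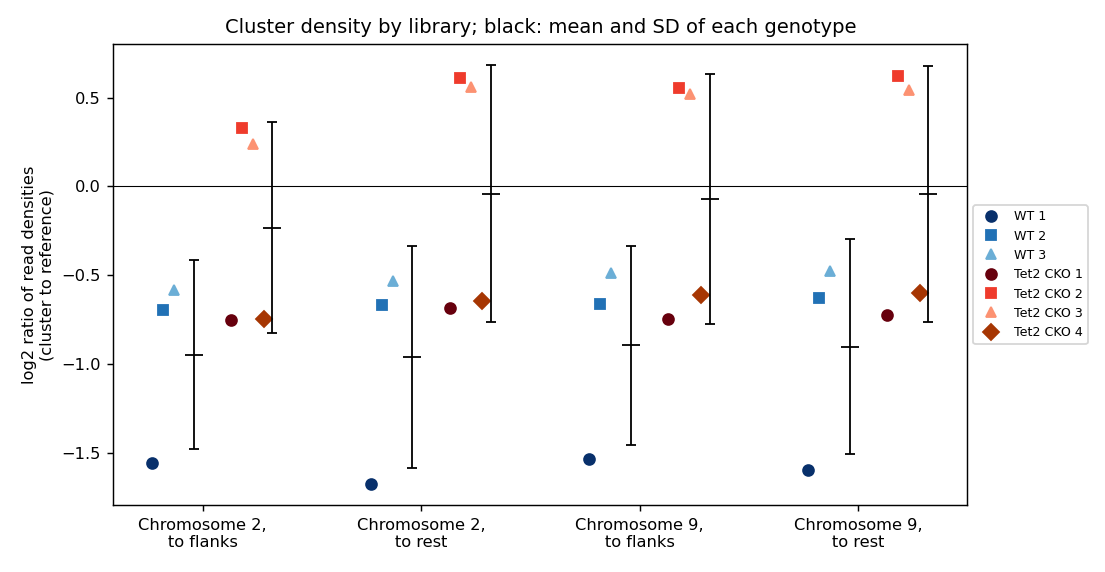
Log2 ratio of read density in each olfactory receptor cluster to its flanks or to the rest of its chromosome, with 1 point per library and black bars for the mean and SD of each genotype (3 WT, 4 Tet2 CKO). Tet2 CKO replicates 2 and 3 lie above 0 in each comparison, the other 5 libraries lie below 0, and WT replicate 1 is lowest.

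The clusters also stood near the ends of the order of stretches of their own length. Among 45 stretches of 4 Mb on chromosome 2, which do not overlap, the cluster had the lowest density in each WT library and in Tet2 CKO replicates 1 and 4. In Tet2 CKO replicate 2 it ranked 2 from the top and in replicate 3 it ranked 4 from the top. Among 50 stretches of 2.4 Mb on chromosome 9, the cluster ranked 1, 2 and 3 from the bottom in WT replicates 1, 2 and 3, and 1 and 2 from the bottom in Tet2 CKO replicates 1 and 4. It ranked 4 from the top in both Tet2 CKO replicates 2 and 3.

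Fewer bins of the clusters held a read, apart from the same 2 libraries. With each library thinned to 11846180 reads outside high-count bins, the share of covered bins with a read in the chromosome 2 cluster was 38.9%, 42.2% and 48.5% in WT and 41.4%, 48.7%, 48.5% and 45.3% in Tet2 CKO. Its flanks had 63.0%, 57.4% and 64.0% in WT and 58.7%, 43.5%, 46.8% and 60.6% in Tet2 CKO. The cluster was thus below its flanks in 5 libraries and slightly above them in Tet2 CKO replicates 2 and 3. For WT replicate 1, the most deeply read library outside high-count bins, the values before thinning were 51.1% in the cluster and 74.1% in the flanks.

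On chromosome 9 the matched shares were 41.2%, 44.0% and 49.7% in WT and 43.0%, 45.8%, 45.7% and 47.3% in Tet2 CKO. The flanks of that cluster had 67.0%, 60.1% and 65.5% in WT and 60.1%, 41.3%, 42.7% and 63.3% in Tet2 CKO. Within the clusters the 2 libraries that stood apart were at the top of the others' range on chromosome 2 and inside it on chromosome 9, and in the flanks they were the lowest of the 7. The mean difference of cluster minus flanks was -11.5 percentage points on chromosome 2 and -11.9 on chromosome 9, with p = 0.0625 for each (two-sided exact permutation of signs, adjusted over the 2 clusters p = 0.0625). Without Tet2 CKO replicates 2 and 3 the mean differences were -17.5 and -18.1 points, and without WT replicate 1 they were -9.43 and -9.57. The Wilson 95% interval of a cluster's share before thinning had a half-width of at most 1.49 percentage points, for counting error alone. No such interval was computed for the matched shares.

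**Figure D2:**
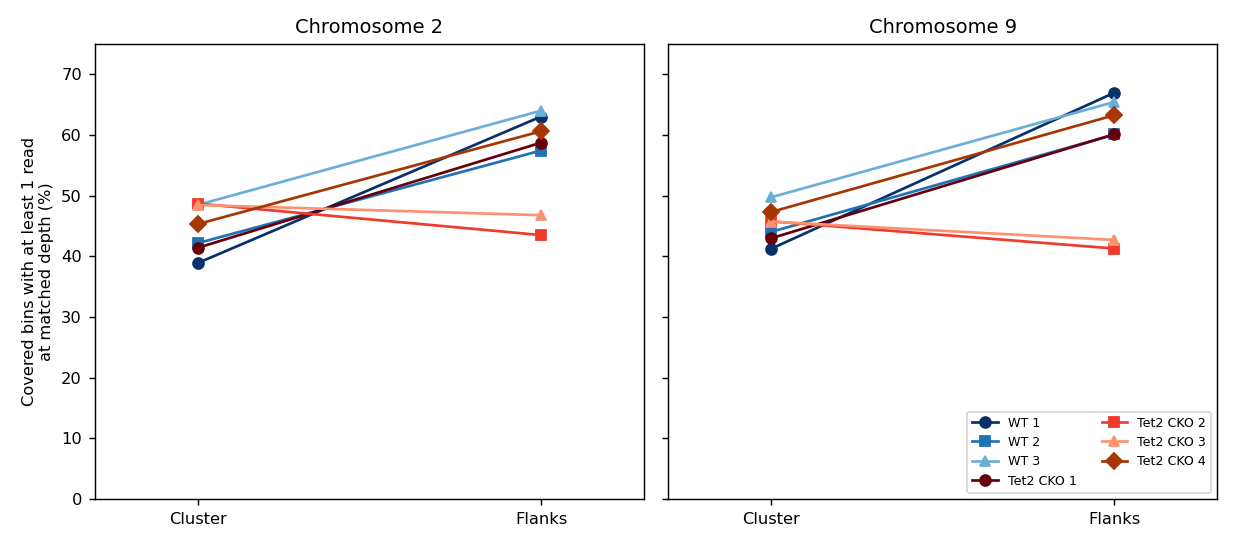
Percentage of covered 500 bp bins with at least 1 read at matched depth (y axis, from 0), in each cluster and in its flanks, with 1 line per library. The lines rise from cluster to flanks in 5 libraries and fall slightly in Tet2 CKO replicates 2 and 3, whose flanks lie between 41.3% and 46.8%.

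Bins without a read in any of the 7 libraries were more common in the clusters. They made up 12.9% of the chromosome 2 cluster (1029 of 8000 bins), 4.79% of its flanks and 5.73% of the rest of the chromosome. On chromosome 9 they made up 10.5% of the cluster (504 of 4800), 3.73% of the flanks and 5.80% of the rest. The longest stretch without a read was 4 kb in the chromosome 2 cluster and 3 kb in the chromosome 9 cluster, so empty bins were scattered and not one missing block. In the rest of the chromosome the longest was 3000 kb on chromosome 2 and 2999.5 kb on chromosome 9. The shares of empty bins given for the rest include these blocks. Receptor genes resemble each other in sequence, and how multiply matching reads were handled is not known from the labels. The part of such reads in the empty bins was not tested.

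In 250 kb steps, each of the 16 steps within the chromosome 2 cluster had a density of 0.25 to 0.90 times the rest of the chromosome in the 3 WT libraries and Tet2 CKO replicates 1 and 4, and of 1.00 to 2.29 times in Tet2 CKO replicates 2 and 3. The low density in those 5 libraries went on beyond the upper edge for 750 kb, at 0.30 to 0.95 times, with 1.44 to 2.27 times in Tet2 CKO replicates 2 and 3. In the next step both turned, to 1.13 to 1.57 times and to 0.87 to 0.90 times. At the lower edge the first step outside still had 0.35 to 0.71 times in the 5 libraries and 1.04 to 1.12 times in the other 2, and the next had 0.58 to 0.93 times and 1.11 times. The low density of the 5 libraries thus reached past both edges of this interval. On GRCm38.p6 the printed promoters of Olfr988 and Olfr1274 lie at 85353875 and 90400390, further apart than the 4 Mb of the interval. The flanks may therefore hold part of the array. Against the outer 1 Mb of each flank the mean log2 ratio over all libraries was -0.62, where it was -0.54 against the whole flanks. The part of the array in the low density past the edges was not tested.

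The upper edge of the chromosome 9 cluster lay within a step that had 0.68 to 1.01 times the density of the rest of the chromosome in the 5 libraries and 1.52 to 1.57 times in Tet2 CKO replicates 2 and 3. The next step outside had 1.28 to 1.49 times and 0.82 to 0.91 times. The first step below the lower edge had 0.56 to 0.78 times in the 5 libraries and 0.71 to 0.72 times in the other 2, so all 7 libraries were low there. Inside this cluster the step from 1750 to 2000 kb above its lower edge was the clearest exception to the pattern, since Tet2 CKO replicates 2 and 3 were also low there, at 0.84 and 0.52 times. In the step that starts at 1250 kb Tet2 CKO replicate 3 was at 0.93 times. In the step that starts at 2000 kb WT replicate 3 was at 1.02 times. The lower flank held another stretch like the cluster. Over the 4 steps from 2000 to 1000 kb below the lower edge, density was 0.24 to 0.94 times in the 5 libraries and 1.50 to 2.45 times in Tet2 CKO replicates 2 and 3.

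Low density in the 5 libraries together with high density in Tet2 CKO replicates 2 and 3 was not restricted to the clusters. On chromosome 2, all 16 steps of the cluster were below 1 in each of the 5 libraries and above 1 in both others, as were 187 of 699 steps outside it (26.8%). On chromosome 9 this held for 6 of the 9 whole steps of the cluster and for 117 of 474 outside it (24.7%). The split of libraries was chosen after the values were seen, so these counts are a description.

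**Figure D3:**
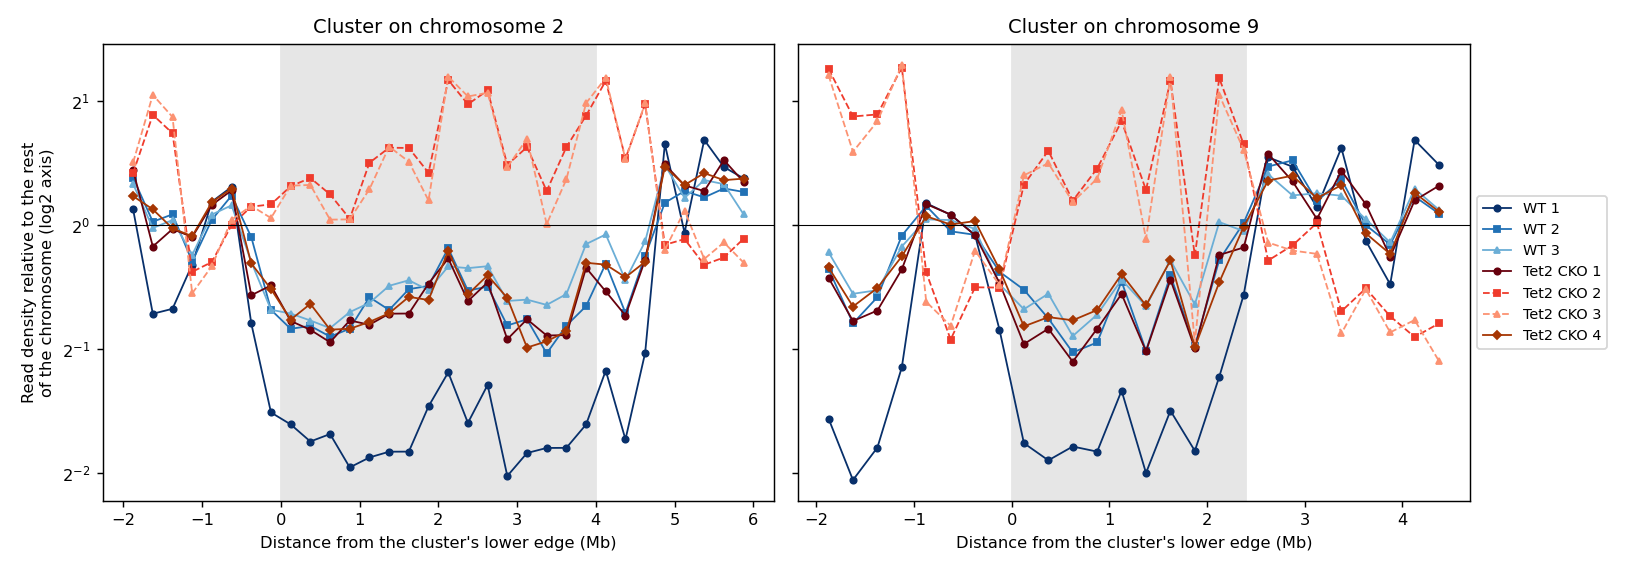
Read density in 250 kb steps relative to the rest of the chromosome (log2 axis) against distance from the lower edge of each cluster in Mb, with 1 line per library and the cluster shaded. Inside the clusters Tet2 CKO replicates 2 and 3 run mostly above 1 and the other libraries below it, and the order is mostly turned round from 750 kb above the upper edge on chromosome 2 and just above it on chromosome 9.

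Within the clusters, windows of 10 kb differed strongly among themselves. Windows with at least 15 covered bins of 20 are described, which were 363 of 400 on chromosome 2 and 231 of 240 on chromosome 9. On chromosome 2 the median window had 0.27, 0.54 and 0.61 times the mean density of the rest of the chromosome in WT, and 0.54, 1.08, 0.98 and 0.56 times in Tet2 CKO. Below the median window of the rest of the chromosome lay 95.3%, 76.3% and 76.6% of cluster windows in WT, and 78.0%, 25.6%, 33.3% and 79.6% in Tet2 CKO. On chromosome 9 these shares were 96.1%, 80.5% and 75.3% in WT and 80.5%, 37.2%, 45.5% and 78.4% in Tet2 CKO. The low density of the 5 libraries was thus spread over most windows and did not come from a few.

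In Tet2 CKO replicates 2 and 3 the upper tail was long. The window at the 90th percentile of the chromosome 2 cluster had 3.45 and 3.54 times the mean of the rest of the chromosome in these 2 libraries, and 0.58 to 1.26 times in the other 5. Before thinning, the share of covered bins with at least 10 reads was 13.1% and 13.5% in those 2 libraries, against 9.12% and 10.3% in their flanks. In WT it was 3.47%, 2.83% and 4.65%, against 20.9%, 5.87% and 8.17% in the flanks. Tet2 CKO replicates 1 and 4 had 3.13% and 3.72%, against 6.83% and 8.74%. The variance of the bin counts in both clusters was 4.52 to 5.48 times their mean in the 5 libraries, and 10.9 to 13.2 times in Tet2 CKO replicates 2 and 3. Those 2 libraries had a high ratio outside the clusters too, at 10.3 to 12.8 in the flanks and 10.6 to 12.0 over the rest of the chromosomes. So did WT replicate 1, though not within the clusters. Its ratio was 11.0 and 10.1 in the flanks on chromosomes 2 and 9, and 12.2 and 11.6 over the rest. These ratios too are from counts that were not thinned, and WT replicate 1 had the most reads outside the high-count bins. The part of depth in its shares and ratios was not tested.

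**Figure D4:**
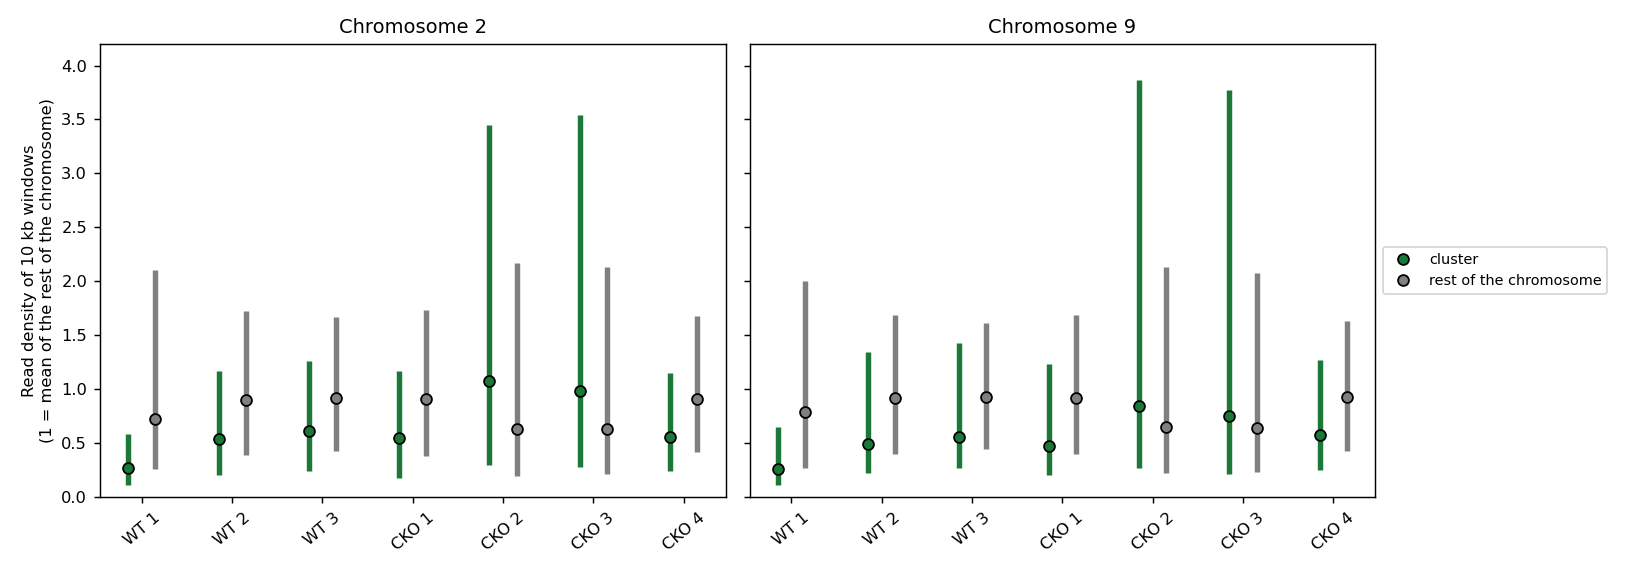
Read density of 10 kb windows relative to the mean of the rest of the chromosome (y axis), for cluster windows (green) and windows of the rest of the chromosome (grey), with points for the median and bars from the 10th to the 90th percentile. Cluster medians lie under the grey medians in 5 libraries and over them in Tet2 CKO replicates 2 and 3, where the bars reach above 3.

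The libraries shared which windows of a cluster were high, including libraries that did not share this outside. Across the 363 windows of the chromosome 2 cluster, WT replicate 1 correlated with Tet2 CKO replicates 2 and 3 at r = 0.61 and 0.63, on log2 of CPM per window of 20 covered bins plus 0.5, where CPM is the count scaled to 1000000 reads outside high-count bins. Across 391 flank windows the same r was 0.054 to 0.13. On chromosome 9 it was 0.62 to 0.63 over 231 cluster windows and -0.18 to -0.12 over 395 flank windows. Tet2 CKO replicates 2 and 3 correlated with the remaining 4 libraries at 0.67 to 0.78 within the clusters and at 0.099 to 0.51 in the flanks. These correlations are across windows, which are not replicates and share base composition and repeats, and they are given without a test.

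The richest windows show the level that single sites reached. They were chosen by their mean CPM over the 7 libraries and are descriptions. The window at chr2:87750001-87760000 held 119, 95 and 170 reads in WT and 111, 346, 448 and 148 in Tet2 CKO. Relative to the rest of chromosome 2 this was 0.91, 1.76 and 2.68 times in WT and 2.01, 7.52, 8.92 and 2.41 times in Tet2 CKO. The genotypes overlapped, with Tet2 CKO replicates 2 and 3 far above the others. A window close by, chr2:87540001-87550000, held 125, 107 and 97 reads in WT and 109, 332, 360 and 123 in Tet2 CKO, with the same 2 libraries high. The next in rank, chr2:85950001-85960000, held 59, 78 and 86 reads in WT and 115, 289, 347 and 144 in Tet2 CKO, and here the Tet2 CKO libraries were all above the WT libraries relative to the chromosome.

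On chromosome 9 the richest window was chr9:38050001-38060000, with 140, 96 and 142 reads in WT and 99, 316, 284 and 98 in Tet2 CKO. The window at chr9:39850001-39860000 held 107, 93 and 113 reads in WT and 97, 294, 327 and 91 in Tet2 CKO. The window at chr9:38350001-38360000 held 115, 82 and 128 reads in WT and 76, 271, 298 and 98 in Tet2 CKO. In all 3 the genotypes overlapped relative to the chromosome, and Tet2 CKO replicates 2 and 3 were highest. The WT means there were 1.38 ± 0.53 to 1.77 ± 0.70 times the density of the rest of chromosome 9 (SD, n = 3), with WT replicate 1 at 0.77 times in the window at chr9:39850001-39860000.

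Single bins of 500 bp were chosen by their reads summed over the 7 libraries and are descriptions too. Libraries with many reads in the clusters weigh most in that sum, so a lead of theirs partly follows from the choice. The bin with the most reads in the clusters, chr2:87748001-87748500, held 34, 27 and 35 reads in WT and 17, 73, 79 and 37 in Tet2 CKO. On chromosome 9 the bin at chr9:38358001-38358500, within a window named above, held 28, 15 and 28 in WT and 19, 71, 70 and 34 in Tet2 CKO. Tet2 CKO replicates 2 and 3 were highest in both bins and replicate 1 was among the lowest. The next bins by reads were chr2:87752001-87752500, with 236 reads over the 7 libraries, and chr9:39206001-39206500, with 250. After them came chr2:87751001-87751500 with 205 and chr9:38054001-38054500 with 232.

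The emptiest windows, again chosen by their values, had low counts in every library. The window at chr2:85680001-85690000 held 21, 2 and 17 reads in WT and 5, 4, 8 and 11 in Tet2 CKO. At chr2:87910001-87920000 there were 11, 2 and 12 in WT and 8, 10, 8 and 14 in Tet2 CKO, and at chr2:87480001-87490000 there were 10, 10 and 6 in WT and 13, 10, 7 and 13 in Tet2 CKO. The windows chr9:39190001-39200000, chr9:39810001-39820000 and chr9:39370001-39380000 ranged from 0 to 21 reads per library. Low values in every library follow from how these windows were chosen.

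Whether the clusters carried another 5hmC level without Tet2 was compared between the genotypes. The log2 ratio of cluster to flanks was -0.95 ± 0.53 in WT and -0.23 ± 0.59 in Tet2 CKO on chromosome 2, and -0.89 ± 0.56 and -0.071 ± 0.70 on chromosome 9 (mean ± SD, n = 3 and n = 4). Against the rest of the chromosome it was -0.96 ± 0.62 and -0.040 ± 0.72 on chromosome 2, and -0.90 ± 0.61 and -0.040 ± 0.72 on chromosome 9. The difference of Tet2 CKO minus WT was 0.71 and 0.82 against flanks (exact permutation over 35 splits, two-sided, p = 0.286 and 0.257) and 0.92 and 0.86 against the rest of the chromosome (p = 0.257 for both in the same exact test). The adjusted p over the 4 was 0.286, and the smallest unadjusted p this design allows is 0.0286.

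These differences did not exceed the spread between libraries, and they shrank when 3 of the libraries were left out. Without Tet2 CKO replicates 2 and 3 they were 0.20 and 0.22 against flanks and 0.29 and 0.24 against the rest of the chromosome. Without WT replicate 1 they were 0.41 and 0.51 against flanks and 0.56 and 0.51 against the rest. Libraries with the same replicate number are treated as pairs, for which Tet2 CKO minus WT against flanks was 0.81, 1.02 and 0.82 on chromosome 2 and 0.78, 1.21 and 1.01 on chromosome 9 for numbers 1, 2 and 3. Each pair was higher in Tet2 CKO (two-sided exact sign permutation, p = 0.25, which is the lowest possible with 3 pairs), and Tet2 CKO replicate 4 has no partner. Each pair also holds 1 of the 3 libraries left out above, WT replicate 1 or Tet2 CKO replicate 2 or 3. The shared direction of the pairs is therefore not separate from those libraries.

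Windows of 10 kb were then tested one by one in a fit over 253968 windows of the whole genome. Of 640 cluster windows, 629 had a mean of at least 10 reads and were tested, 394 on chromosome 2 and 235 on chromosome 9. None was past an adjusted p of 0.05 in edgeR's quasi-likelihood test, with 0% called over all windows tested and a lowest adjusted p of 0.368. At an unadjusted p under 0.05, 176 of the 629 cluster windows were higher in Tet2 CKO (28.0%), where the share over all windows was 9.62%, and 0 were lower, where it was 3.92%. Of the 176, 121 lay on chromosome 2 and 55 on chromosome 9.

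The fitted log2 fold change was positive in 562 of the 629 windows, against 378 of 798 flank windows and 128188 of 253968 over all windows. A positive value does not mean that the libraries of the genotypes did not overlap. The median log2 fold change was 0.95 on chromosome 2 and 0.71 on chromosome 9, against -0.060 over the 798 flank windows tested and 0.011 over all windows. DESeq2's Wald test gave an adjusted p to 45 cluster windows and called 20 of them (44.4%, against 30.6% over all windows with one). With a local dispersion trend it gave an adjusted p to 551 and called 3 (0.544%, against 0.1% over all). Neighbouring windows share libraries and are not independent, so these counts describe the clusters and do not test them as a set.

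The counts moved with the same libraries. Without Tet2 CKO replicates 2 and 3, 17 of 631 cluster windows were higher (2.69%, against 1.68% over all windows) and 11 lower (1.74%, against 1.74% over all) at an unadjusted p under 0.05 in edgeR, and the median log2 fold change fell to 0.16. Without WT replicate 1, 33 of 625 were higher (5.28%, against 2.1% over all) and 2 lower (0.32%, against 0.782% over all). With the replicate number as a block, in the 6 paired libraries, edgeR called 199 of 623 cluster windows higher at an adjusted p under 0.05 (31.9%) against a share of 12.6% over all windows, and 0 lower against 10.1%. In that fit 102 of 797 flank windows were higher and 82 lower. Each of its pairs holds WT replicate 1 or Tet2 CKO replicate 2 or 3, and what the replicate number marks is not known. The median level of the cluster windows, as log2 CPM minus the median of all windows, was -1.07, -0.73 and -0.62 in WT and -0.71, 0.33, 0.21 and -0.65 in Tet2 CKO.

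Some windows were higher in each Tet2 CKO library. The window at chr2:89430001-89440000, one of the 2 with the smallest unadjusted p in its cluster, held 12, 7 and 12 reads in WT and 26, 37, 62 and 30 in Tet2 CKO. Relative to the chromosome this was 0.11, 0.15 and 0.22 times in WT and 0.55, 0.95, 1.45 and 0.58 times in Tet2 CKO, with no overlap (log2 difference 2.53 with SE 0.57). The window at chr2:87700001-87710000 held 16, 4 and 21 reads in WT and 32, 100, 53 and 38 in Tet2 CKO (log2 difference 2.72 with SE 0.63). On chromosome 9 the window at chr9:38240001-38250000 held 42, 20 and 28 reads in WT and 54, 69, 87 and 75 in Tet2 CKO (log2 difference 1.89 with SE 0.46). At chr9:38950001-38960000 there were 31, 12 and 42 in WT and 42, 87, 52 and 47 in Tet2 CKO (log2 difference 1.65 with SE 0.53). In these 4 windows Tet2 CKO replicates 1 and 4 were also above each WT library relative to the chromosome. They were chosen for their p, so the lack of overlap is no support, and none passed the adjusted threshold in edgeR without the block (adjusted p = 0.368 for each).

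No cluster window was lower in Tet2 CKO at an unadjusted p under 0.05 in edgeR. The 2 lower windows with the smallest p in each cluster are named here. The smallest p among lower windows belonged to chr9:38210001-38220000, with 56, 22 and 34 reads in WT and 12, 12, 3 and 18 in Tet2 CKO (log2 difference -1.13 with SE 0.56), where the Tet2 CKO libraries were all below the WT libraries relative to the chromosome. The window at chr9:37800001-37810000 held 27, 15 and 23 reads in WT and 7, 4, 10 and 6 in Tet2 CKO (log2 difference -1.08 with SE 0.62). On chromosome 2 they were chr2:86010001-86020000 (log2 difference -1.06 with SE 0.64) and chr2:87940001-87950000 (log2 difference -0.93 with SE 0.63). In the last 3 of these windows the genotypes overlapped relative to the chromosome.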

How the data were processed

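The authors deposited raw read counts in 500 bp bins on mm9, with no normalization. The build mm9 and the tools Bowtie2, HOMER and DESeq2 appear in the submitters' processing notes. Their versions and roles, and the handling of duplicate or multiply matching reads, are not given in the sources used here. No input library was analysed here.

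The intervals, gene arrays and comparisons were chosen with earlier results of these data known. Density was the sum of counts over covered bins divided by their number, with bins of a mean count above 100 left out. Ratios within a library need no scaling between libraries. They were tested by exact permutation, two-sided. Counts summed in 10 kb windows, with a mean of at least 10, were tested in edgeR 4.0.16 (R 4.3.3) with TMM scaling, genotype as the single term of a quasi-likelihood fit, and Benjamini-Hochberg adjustment over all windows. The SE was taken from the F statistic. The fit was tested on simulated data first. DESeq2 1.42.0 was the alternative, and windows it gave no adjusted p were left out. Its local dispersion trend was added after seeing the data. Python 3.11.15, pandas 2.3.3, numpy 2.4.6, scipy 1.17.1 and matplotlib 3.10.9 gave the other values.

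The labels give replicates 1 to 3 of both genotypes the same numbers. Over 226979 windows, deviations from the genotype's mean had a correlation of 0.550 between the libraries numbered 1, of 0.300 for number 2 and of 0.343 for number 3, above the criterion of 0.1 for pairs. Other combinations were as high, at 0.513 for WT replicate 1 against Tet2 CKO replicate 4 and 0.360 for WT replicate 3 against Tet2 CKO replicate 2. The criterion thus did not tell libraries of the same number from other combinations. The labels do not say what a number marks.

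In each cluster the text names the 3 windows with the highest and the 3 with the lowest mean CPM, the 2 with the smallest p in each direction, and the 3 bins with the most reads. Promoter sequences come from RefSeq (GRCm38.p6), using the first entry listed for a gene. Their coordinates are not those of the mm9 bins. The rule for a run of receptor genes was set after the table was seen. Alternatives were other scalings, count filters, flanks and window lengths, no bin left out, all bins as the denominator, DESeq2, the replicate block, and leaving out each library or Tet2 CKO replicates 2 and 3 together.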

Additional observations from a re-analysis of the deposited data

How the results depend on the processing

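With the high-count bins kept, the mean log2 ratio of cluster to the rest of the chromosome was -3.98 on chromosome 2 and -3.42 on chromosome 9, both past the threshold (exact permutation, adjusted p = 0.0313), and the difference of Tet2 CKO minus WT turned to -0.10 and -0.16, since those bins lie in the reference and not in the clusters. With all bins as the denominator, the share of bins with a read was lower in the clusters by a mean of -14.6 and -14.5 percentage points, past the threshold (exact permutation, adjusted p = 0.0469). The count of cluster windows past the threshold, 0 in edgeR, was 199 with the replicate block, 20 in DESeq2 and 3 in DESeq2 with a local trend. The count of cluster windows higher at an unadjusted p under 0.05 was 274 with the replicate block (18.9% over all windows), 95 with library size alone (5.75% over all), 24 of 64 windows of 100 kb (11.2% over all), and 17 without Tet2 CKO replicates 2 and 3 (1.68% over all). With 1 library left out it ran from 33 without WT replicate 1 (2.1% over all) to 254 without Tet2 CKO replicate 1 (15.5% over all). The count lower was 2 with the replicate block (17.8% over all), 11 without Tet2 CKO replicates 2 and 3 (1.74% over all), 1 in DESeq2 (4.61% over all) and 1 with its local trend (7.12% over all). Leaving out 1 library gave 0 to 2 lower (0.782% to 8.57% over all). The median log2 fold change of cluster windows minus that of all windows was 0.86, and 0.19 without Tet2 CKO replicates 2 and 3. Library size alone moved the median of all windows to -0.074. The other 177 alternative values kept their direction and their side of the threshold, or for counts stayed within 1.5 times. The replicate block changed no other call. The cause of these changes was not tested, other than where stated. Single bins held too few reads for a test, and input DNA and base composition were not analysed here.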
